A study of Rattus norvegicus with 36 samples.

Results

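The genes that carry the insulin signal through Akt to mTOR were followed in rat soleus muscle after spinal cord injury (SCI) and treadmill training (TM). They are the insulin receptor Insr, its adaptors Irs1 and Irs2, the kinases Akt1 and Akt2, the Tsc1, Tsc2 and Rheb genes of the switch above mTOR, Mtor itself and the S6 kinase gene Rps6kb1. These 10 genes of 14217 on the arrays were taken by name, through probe sets that carry a single gene symbol. They have 19 such probe sets in all. Each gene was represented by its brightest probe set, judged by the mean log2 signal of the 36 arrays, a choice that does not look at the groups.

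Insulin and the insulin-like growth factors act on receptors that phosphorylate IRS adaptors, which recruit PI3-kinase and so activate Akt. Akt favors glucose uptake and glycogen synthesis, and it restrains the TSC complex, which otherwise keeps the small GTPase Rheb inactive. Active Rheb turns on mTOR complex 1, which promotes protein synthesis through S6 kinase and 4E-BP1, and muscle fibres grow when this route is active. It works mainly through phosphorylation, so mRNA levels describe the supply of its parts and not its activity.

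The samples were left soleus muscles of female Sprague Dawley rats, 16 weeks old at the start, with 6 rats and 6 arrays in each of 6 groups. Uninjured, untrained controls (CTR) were compared with rats killed 3, 8 or 14 days after a moderate contusion of the cord at T8 (SCI3d, SCI8d, SCI14d). Trained rats had the same injury and stepped on a treadmill from day 7 in sessions of 20 min. The SCI8d + TM group had 3 sessions, the SCI14d + TM group had 5 days with 2 sessions a day, and muscle was taken 8 h after the last one. All experimental rats were also given access to a dough diet.

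The soleus identity was clear in every group. All 9 muscle fibre markers, such as slow myosin and troponin, were bright, and the dimmest, Tpm3, had a mean signal of 18100 to 30500. Their mean differed from controls by -0.41 on the log2 scale in SCI14d, with all 9 lower and 1 called lower. It differed by -0.21 in SCI14d + TM and by -0.09 to -0.01 in the other injured groups. Their summed signal was 242380 to 491337 in SCI14d and 417898 to 610230 in controls. The part of this in the results was not tested. Array medians were 191.1 to 199.0 in CTR and 167.2 to 188.0 in SCI3d, all below CTR. They were 203.6 to 235.6 in SCI8d + TM and 201.4 to 221.3 in SCI14d, all above CTR. In SCI8d they were 190.3 to 213.0 and in SCI14d + TM 192.4 to 215.6. The GAPDH 3' to 5' signal ratio, a measure of RNA integrity, was 1.02 to 1.61. Every fold change below is a difference of mean log2 signal with its standard error (SE). Each p is from limma, adjusted over all 31042 probe sets, and a gene is called changed under 0.05. Whole muscle was measured, so fewer cells of a type and less RNA per cell cannot be told apart.

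The bases before the start of transcription are shown for 4 genes, Mtor and Rheb, which both rose on day 3, and Tsc1 and Tsc2, which were both lower than in controls in the SCI8d + TM group. The sequences are from RefSeq (GRCr8), which has an entry for 9 of the 10 genes but not Irs2. Each is the 250 bases before the start, 5' to 3' on the gene's strand. Capitals mark GGGCGG (the GC box), CACGTG (an E-box), GTAAACA (the forkhead core) and TGACG (a CRE core), searched on both strands, so CCGCCC and CGTCA are the same motifs reversed. No matches overlap in these windows.
Mtor, chr5:164167735-164167984, + strand: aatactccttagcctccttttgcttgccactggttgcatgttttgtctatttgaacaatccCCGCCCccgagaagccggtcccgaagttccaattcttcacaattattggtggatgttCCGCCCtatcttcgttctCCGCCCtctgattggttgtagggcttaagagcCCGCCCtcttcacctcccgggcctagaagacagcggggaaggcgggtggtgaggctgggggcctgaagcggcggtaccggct
Rheb, chr4:11013133-11013382, + strand: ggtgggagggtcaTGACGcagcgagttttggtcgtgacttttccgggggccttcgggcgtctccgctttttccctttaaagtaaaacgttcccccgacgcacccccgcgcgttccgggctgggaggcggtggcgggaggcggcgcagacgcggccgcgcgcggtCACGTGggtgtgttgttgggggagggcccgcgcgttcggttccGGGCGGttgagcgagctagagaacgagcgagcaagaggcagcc
Tsc1, chr3:32367447-32367696, + strand: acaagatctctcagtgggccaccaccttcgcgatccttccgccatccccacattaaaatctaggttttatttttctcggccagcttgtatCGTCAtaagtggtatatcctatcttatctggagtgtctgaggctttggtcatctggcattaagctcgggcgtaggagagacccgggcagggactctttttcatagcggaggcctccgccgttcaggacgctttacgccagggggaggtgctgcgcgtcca
Tsc2, chr10:14160240-14160489, - strand: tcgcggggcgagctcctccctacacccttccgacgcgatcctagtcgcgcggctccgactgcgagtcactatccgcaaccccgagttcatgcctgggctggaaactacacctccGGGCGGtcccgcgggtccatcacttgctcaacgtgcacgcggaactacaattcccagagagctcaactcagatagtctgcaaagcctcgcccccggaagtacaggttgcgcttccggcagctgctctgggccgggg
The Mtor window held 4 GC boxes and none of the other motifs. The RefSeq gene itself begins upstream of this start by 1210 bases for Rheb, 263 for Tsc1 and 78 for Tsc2, so the Rheb and Tsc1 windows lie wholly within the gene. The Rheb window held 1 GC box, 1 E-box and 1 CRE core. The Tsc1 window held 1 CRE core and the Tsc2 window 1 GC box. Over all 33469 RefSeq windows of this length, 30.5% held a GC box, 5.59% the E-box, 3.21% the forkhead core and 18.2% the CRE core. Among the 9 genes, the forkhead core occurred once, in the Insr window. The start used for Insr lies 472 bases inside the RefSeq gene, so that window too lies wholly within the gene. These are matches of letters and not sites shown to be used.

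In untrained rats, day 3 held the most changes. Irs2 and Akt1 fell, and Mtor and Rheb rose, while Insr, Irs1, Akt2, Rps6kb1, Tsc1 and Tsc2 did not pass the test. Thus 4 of 10 genes were called, against 16.5% of all probe sets in the same comparison, of which 7.22% were called higher and 9.24% lower. The 6 SCI3d rats lay entirely above or below the 6 controls for 3 genes, Akt1, Mtor and Rheb, as they did for 7.73% of all probe sets. The median difference of the 10 genes was -0.03, and that of all probe sets was -0.04. On day 8, 2 of 10 were called, Irs2 lower and Mtor higher, against 6.29% of all probe sets (3.01% higher and 3.28% lower). Irs2 was the 1 gene without overlap on that day (2.8% of all probe sets). On day 14 Irs2 was the 1 gene called, and it was lower (3.19% of all probe sets, 1.52% higher and 1.67% lower), with a median of -0.17 over the 10 genes and 0.08 over all probe sets. Over all 6 groups, limma's F test called 5 genes, Irs2, Akt1, Mtor, Tsc1 and Rheb (21.9% of all probe sets).

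**Figure D1:**
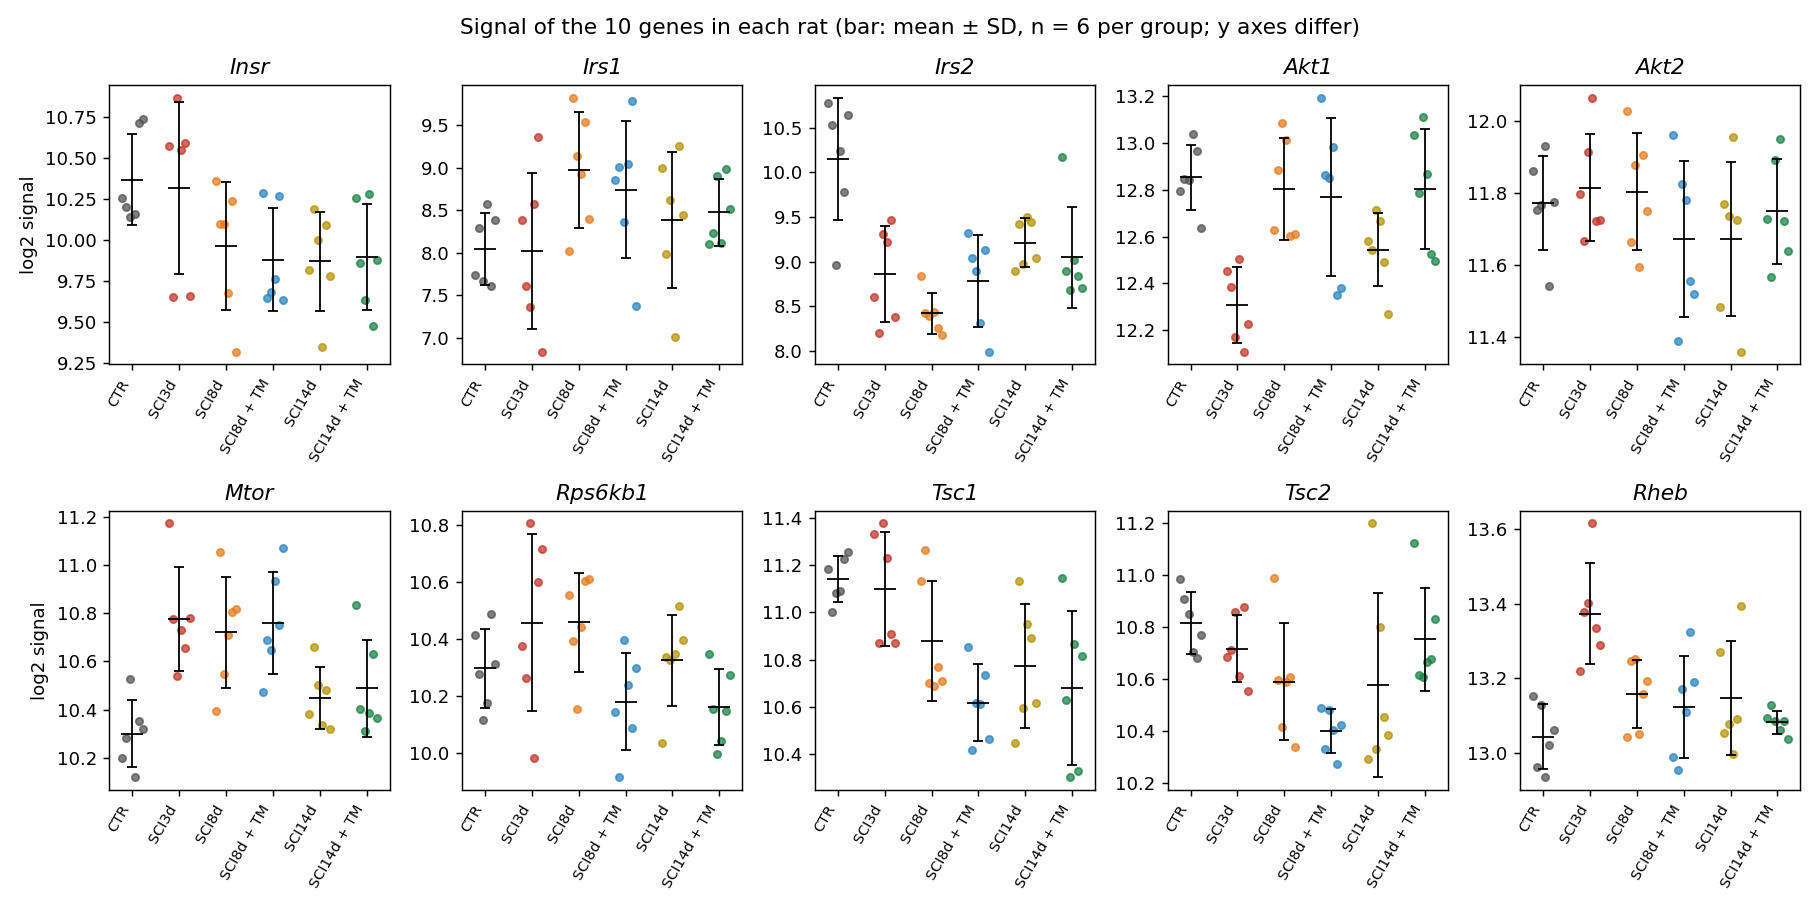
Log2 signal of each of the 10 genes (y axis, scaled per gene) in every rat of the 6 groups (x axis); points are rats and bars are the mean ± SD of 6. Irs2 lies lower in every injured group than in most controls, the SCI3d rats stand below the controls for Akt1 and above them for Mtor and Rheb, and trained and untrained rats of a day overlap for all 10 genes.

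Irs2, a main adaptor of the insulin receptor, showed the largest change of the 10 genes after injury. In controls its signal ranged from 499.4 to 1754, with a median of 1344. On day 3 the range was 294.0 to 708.1 with a median of 492.7, and on day 8 it was 290.0 to 459.3 with a median of 339.7. All SCI8d rats were below the lowest control, at 499.4, and the other 5 controls were at 877.8 or more. On day 14 the range was 476.3 to 724.4 with a median of 605.2, and only the lowest control fell within it.

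The Irs2 fold change was -1.29 (SE 0.27, adjusted p = 0.000821) on day 3, -1.73 (SE 0.27, adjusted p = 0.000242) on day 8 and -0.94 (SE 0.27, adjusted p = 0.0472) on day 14. The level was thus 0.409, 0.301 and 0.521 times that of controls. Irs2 has 1 probe set, so no second measurement of it was at hand, and combining probe sets left its signal as it was. The day 3 and day 8 calls held in all 50 alternative settings, which changed the scaling, the model, the arrays or the way probe sets were combined. The day 14 call was lost in 26 of them, among them 22 of the 36 in which 1 array was left out, with an adjusted p between 0.0501 and 0.134 in these 22. These included CTR replicates 1, 2, 4, 5 and 6 and SCI14d replicates 1, 3, 4, 5 and 6. Leaving out an array from outside the groups compared left the fold change itself unchanged. Without CTR replicate 3, the lowest control, the day 14 difference was -1.18 (adjusted p = 0.00819). The level on day 14 was 0.79 above that on day 8 (SE 0.27), which was not called (adjusted p = 0.414), though every SCI14d rat was above every SCI8d rat, as for 0.322% of all probe sets without overlap between these groups.

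Adipocyte markers also had lower mean levels in the injured groups. The mean of 6 such markers differed from controls by -1.75 on the log2 scale in SCI3d, -1.03 in SCI8d, -1.13 in SCI14d, -1.58 in SCI8d + TM and -0.81 in SCI14d + TM. Of these 6 markers, 4, 1, 1, 4 and 0 were called lower, none was at 0, and the dimmest was Lep. Their summed signal was 15313 to 44275 in controls, 7342 to 18934 in SCI3d, 8816 to 14401 in SCI8d and 9042 to 31530 in SCI14d. In the trained groups it was 9361 to 14048 on day 8 and 13486 to 34669 on day 14. Their part in the Irs2 result was not tested.

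The other upstream genes did not pass the test on any day. Irs1, the other main adaptor, had a median signal of 263.9 in controls, 265.0 in SCI3d, 526.4 in SCI8d and 369.8 in SCI14d. The spread within groups was wide, from 114.1 to 659.5 in SCI3d, and the day 8 difference of 0.93 had a 95% interval of 0.16 to 1.71 (adjusted p = 0.143). Insr had medians of 1199.5 in controls, 1512 in SCI3d, 1097 in SCI8d and 961.6 in SCI14d. Its day 14 difference was -0.50 with an interval of -0.91 to -0.09 (adjusted p = 0.176). A second, dimmer probe set of Insr gave 0.18, 0.06 and -0.32 on days 3, 8 and 14. Its day 14 interval was -0.71 to 0.08 (adjusted p = 0.41). The groups overlapped for both genes at every time.

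Akt1, the more widely expressed of both Akt genes, fell on day 3 and was back near control levels on day 8. Its signal was 6365 to 8409.6 (median 7342) in controls, 4416 to 5805 (median 5073) in SCI3d and 6218 to 8696 (median 6953) in SCI8d. The SCI3d rats were below every control and below every SCI8d rat. The fold change was -0.55 on day 3 (SE 0.13, adjusted p = 0.00313), and the rise from day 3 to day 8 was 0.50 (SE 0.13, adjusted p = 0.0168). Akt1 was the 1 gene of 10 called between these days (6.79% of all probe sets) and the 1 gene without overlap between them (1.82%). That second call was lost without SCI8d replicate 3 or 4 (adjusted p 0.0504 and 0.0543). It was also lost with median centring and with scaling to Gapdh (adjusted p = 0.101 in each). The groups of the comparison alone gave an adjusted p of 0.0656, and the methods' t-test gave 0.0837. On day 14 the median was 6049.6 and the difference from controls was -0.31 (adjusted p = 0.197).

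The Akt1 change rests on its brightest probe set. A second probe set gave -0.41 on day 3 (adjusted p = 0.14), and the remaining one, dim at a mean log2 signal of 6.16, gave 0.03. The mean of the 3 gave -0.31 (adjusted p = 0.0693). From day 3 to day 8 the second probe set gave 0.45 (adjusted p = 0.155) and the dim one 0.37 (adjusted p = 0.52). For Akt2, the isoform best known for insulin-stimulated glucose uptake, the probe sets disagreed. By the brightest one, group medians lay between 3266 and 3606, and the differences from controls on days 3, 8 and 14 were 0.04, 0.03 and -0.10. The 95% intervals of these 3 differences together spanned -0.32 to 0.26, and the F test gave an adjusted p of 0.761. A second probe set, at a mean log2 signal of 10.65, gave 0.52 on day 8 with an interval of -0.07 to 1.11. A further one, at 10.24, gave 0.97 on day 8 (-0.02 to 1.96), and in SCI8d + TM its interval was 0.01 to 1.99 (adjusted p = 0.182). None of the 4 Akt2 probe sets was called against controls.

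**Figure D2:**
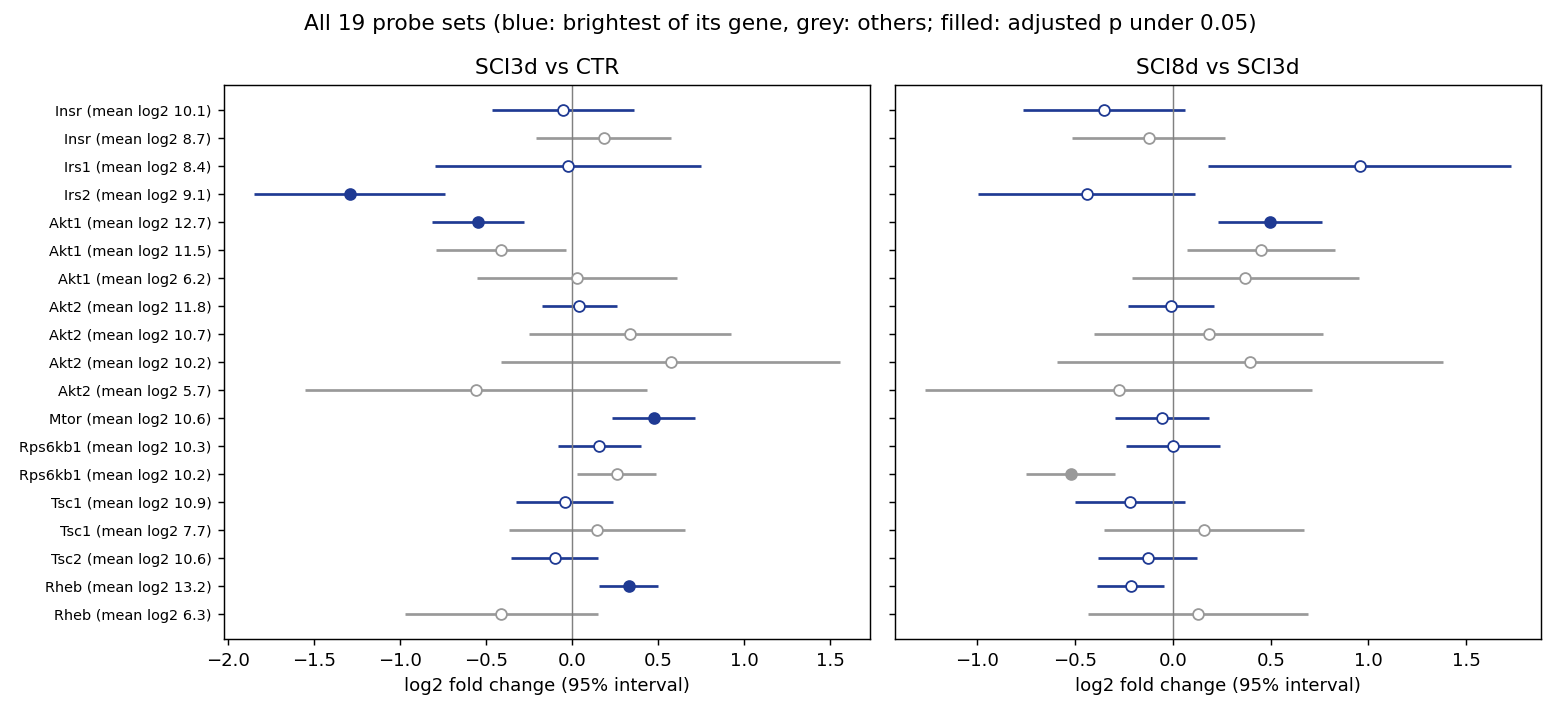
Log2 fold change with its 95% interval (x axis) of all 19 probe sets of the 10 genes (y axis, with the mean log2 signal of each) for SCI3d against CTR and SCI8d against SCI3d. The second Rps6kb1 probe set fell from day 3 to day 8 by 0.52 on the log2 scale where the brighter one differed by 0.00, and the dim Rheb and Akt1 probe sets do not follow the bright ones on day 3.

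Mtor, the kinase at the core of both mTOR complexes, was higher than in controls on days 3 and 8. Its signal was 1112 to 1474 (median 1262) in controls, 1487 to 2309 (median 1725) in SCI3d and 1346 to 2126 (median 1731) in SCI8d. All SCI3d rats were above the highest control, and the SCI8d rats overlapped the controls at their lower end. The fold change was 0.48 on day 3 (SE 0.12, adjusted p = 0.00421) and 0.42 on day 8 (SE 0.12, adjusted p = 0.0268). The level was thus 1.39 and 1.34 times that of controls. On day 14 the range was 1277 to 1617 and the difference 0.15 was not called, with an interval of -0.09 to 0.39.

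The day 8 call for Mtor was lost without CTR replicate 1, 2 or 4 or SCI8d replicate 2, 5 or 6 (adjusted p 0.0501 to 0.0903). It was also lost with median centring (adjusted p = 0.0784), scaling to Gapdh (0.245) and the groups of the comparison alone (0.0578). For this difference the methods' t-test gave an adjusted p of 0.0714. Scaling each array to Gapdh also ended the day 3 call (adjusted p = 0.0523). Mtor has 1 probe set, so no second measurement of it was at hand. Rps6kb1, which encodes the S6 kinase that mTOR complex 1 activates, had differences of 0.16, 0.16 and 0.03 from controls on days 3, 8 and 14, none called. Its 2 probe sets gave different changes with time. From day 3 to day 8 the second one fell by 0.52 (adjusted p = 0.00341) and from day 3 to day 14 it fell by 0.60 (adjusted p = 0.000463), while the brighter one gave 0.00 and -0.13. None of the 10 genes, by its brightest probe set, was called between SCI14d and SCI3d (12.9% of all probe sets) or between SCI14d and SCI8d (0% of all probe sets). At an unadjusted p under 0.05, limma had 4 and 2 genes, against 26.6% and 8.75% of all probe sets. The methods' t-test called 0 genes after adjustment in both comparisons, and 4 and 3 before it (21.4% and 6.46% of all probe sets).

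Rheb, the GTPase that turns on mTOR complex 1, rose with Mtor on day 3. Its signal was 7824 to 9103 (median 8432) in controls, 9545 to 12549 (median 10489) in SCI3d and 8443 to 9745 (median 9251) in SCI8d. Every SCI3d rat was above every control. The fold change was 0.33 on day 3 (SE 0.08, adjusted p = 0.00514), and the later differences of 0.11 and 0.10 were not called. A second, dim probe set of Rheb gave -0.41 on day 3 (adjusted p = 0.365), so the mean of both was -0.04.

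Tsc1 and Tsc2, whose products form the complex that inhibits Rheb, were not called at any time in untrained rats. Tsc1 had medians of 2256 in controls, 2163 in SCI3d, 1709.7 in SCI8d and 1736 in SCI14d. Its differences from controls were -0.04, -0.26 and -0.37, the last with an interval of -0.65 to -0.09 (adjusted p = 0.137). Tsc2 had medians of 1797 in controls, 1661 in SCI3d, 1544 in SCI8d and 1369.7 in SCI14d, and differences of -0.10, -0.23 and -0.24. In SCI14d, 1 rat at 2351 was above all controls.

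Signs of other tissues also moved on day 3, beside the Akt1, Mtor and Rheb changes. The mean of 6 tendon markers differed from controls by -2.26, with 5 called lower, and their summed signal was 15319 to 93233 in controls and 14723 to 33508 in SCI3d. The mean of 4 erythrocyte markers was higher by 1.73, with 3 called higher, and their sum was 35742 to 48127 in controls and 40579 to 76464 in SCI3d. The mean of 10 macrophage and leukocyte markers differed by 0.17, with 1 called. The mean of 5 endothelium markers differed by -0.29, with 1 called lower. Their sum was 5836 to 7327 against 7817 to 10024 in controls. The mean of 8 fibroblast markers differed by -0.335 and that of 3 Schwann cell and nerve markers by -0.17, each with 1 called lower. In SCI8d the mean differed by 1.67 for erythrocyte (3 called higher), 0.695 for fibroblast (1 called higher) and 0.40 for macrophage and leukocyte markers. It was -0.84 for tendon (1 called lower), -0.36 for endothelium and -0.08 for Schwann cell and nerve markers (1 called lower). In SCI14d these were 0.82, 0.81 (1 called higher), 0.68, -0.39 (1 called lower), -0.23 and -0.50 in the same order. No marker was at 0, and their part in the results was not tested.

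Trained rats were compared with untrained rats killed on the same day after injury. None of the 10 genes was called on day 8 (0 of all probe sets) or day 14 (0.00322% of all probe sets) in limma. At an unadjusted p under 0.05, limma had 1 and 0 genes (4.33% and 5.96% of all probe sets), and the methods' t-test 1 and 0 (4.03% and 5.75%). Rps6kb1 was the 1 gene on day 8, with 963.9 to 1348 (median 1170.3) in SCI8d + TM and 1139 to 1566 (median 1448) in SCI8d. Its difference was -0.28 with a 95% interval of -0.52 to -0.04 (adjusted p = 1). The second Rps6kb1 probe set gave 0.07 in this comparison, with an interval of -0.16 to 0.29.

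**Figure D3:**
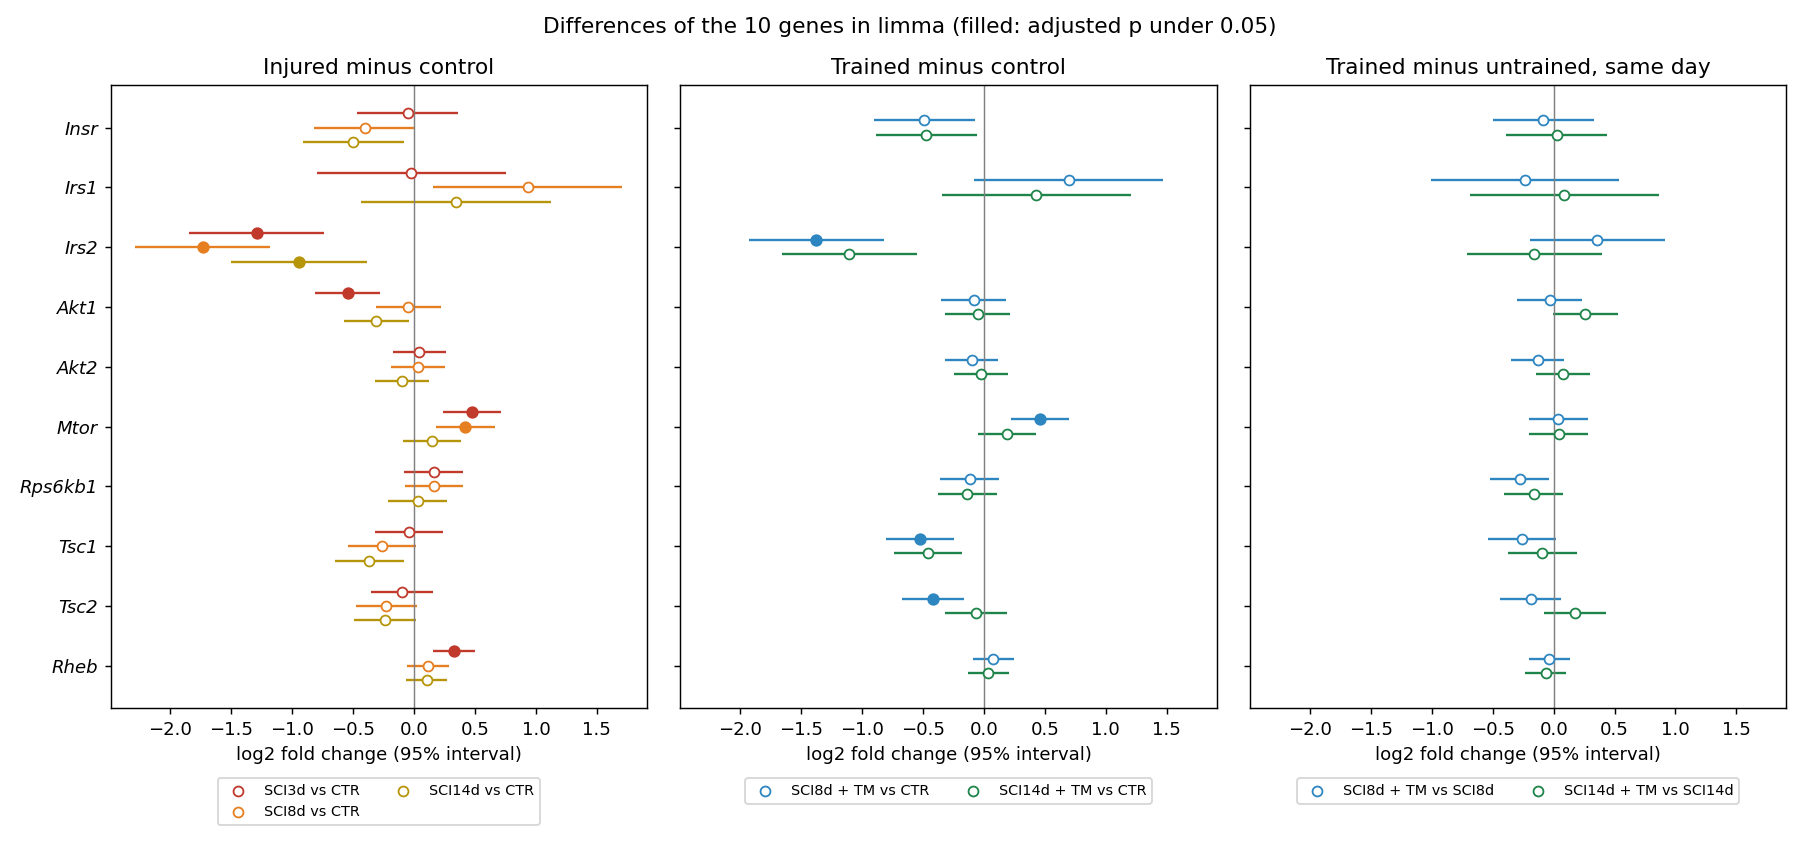
Log2 fold change with its 95% interval (x axis) of the 10 genes (y axis) for injured minus control, trained minus control and trained minus untrained rats, with filled points called at an adjusted p under 0.05. Filled points occur only in the panels against controls, and every interval of the training panel except that of Rps6kb1 on day 8 includes 0.

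For the genes that changed with injury, no training difference was called. Irs2 differed by 0.36 on day 8 (interval -0.20 to 0.91) and by -0.16 on day 14 (-0.71 to 0.39). Mtor differed by 0.04 on both days, with intervals from -0.20 to 0.28. Akt1 differed by -0.03 on day 8 (-0.30 to 0.23) and by 0.26 on day 14 (-0.01 to 0.53), where the medians were 7267 in trained and 6049.6 in untrained rats. Rheb differed by -0.03 on day 8 (-0.20 to 0.14) and by -0.07 on day 14 (-0.24 to 0.10). All 4 genes overlapped between trained and untrained rats of a day.

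Trained rats were also compared with controls, which combines injury and training. In SCI8d + TM, 4 of 10 genes were called, with Irs2, Tsc1 and Tsc2 lower and Mtor higher. Of all probe sets 12.2% were called, 6.48% higher and 5.71% lower. In SCI14d + TM none was called in limma (0.358% of all probe sets), with 3 at an unadjusted p under 0.05 (12.1%), and 0 and 3 by the methods' t-test after and before adjustment (14.6% of all probe sets before it). These comparisons share their controls with those of the untrained rats.

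Both genes of the TSC complex were lower in SCI8d + TM than in controls, and they were the 2 of 10 genes without overlap in this comparison (7.17% of all probe sets). Tsc1 had a signal of 1369.9 to 1851 (median 1569.9) against 2053 to 2444 (median 2256) in controls. The fold change was -0.52 (SE 0.14, adjusted p = 0.0114). Tsc2 had 1237 to 1436 (median 1364) against 1642 to 2027 (median 1797), and the fold change was -0.42 (SE 0.13, adjusted p = 0.0247). Against untrained rats of day 8 the differences were -0.26 (interval -0.54 to 0.02) and -0.19 (-0.44 to 0.06), neither called. A dim second probe set of Tsc1 gave 0.10 against controls, and the mean of both gave -0.21 (adjusted p = 0.287). Scaling each array to Gapdh ended the calls of Tsc1 (-0.46, adjusted p = 0.105), Tsc2 (-0.35, adjusted p = 0.232) and Mtor (0.53, adjusted p = 0.0593) in this group, and median centring ended that of Mtor (adjusted p = 0.0896). The Tsc2 call was lost without CTR replicate 1 or 2 or SCI8d + TM replicate 2 or 5 (adjusted p 0.0512 to 0.0602).

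Irs2 and Mtor were called in the same directions in SCI8d + TM as in untrained rats of that day. Irs2 had 254.7 to 638.5 (median 501.0) and a fold change from controls of -1.37 (SE 0.27, adjusted p = 0.00111). Mtor had 1423 to 2150.4 (median 1687.5) and a fold change of 0.46 (SE 0.12, adjusted p = 0.00933). Fibroblast markers were higher in this group by a mean of 1.03, with 4 of 8 called higher and a sum of 183434 to 241168 against 64665 to 227387 in controls. Erythrocyte markers were higher by a mean of 1.71, with 3 of 4 called higher and a sum of 49012 to 68199. Macrophage and leukocyte markers differed by 0.77, with 2 of 10 called higher and a sum of 14723 to 37581 against 11207 to 22099 in controls. Tendon markers differed by -1.29, with 2 of 6 called lower, 1 called higher and a sum of 39782 to 77828. Endothelium markers differed by -0.375, with 1 of 5 called lower and a sum of 5015 to 7777 against 7817 to 10024 in controls. Schwann cell and nerve markers differed by -0.42, with 1 of 3 called lower. No marker was at 0, and their part in the Irs2, Mtor, Tsc1 and Tsc2 results was not tested. In SCI14d + TM, Irs2 differed from controls by -1.10 (adjusted p = 0.0594), Tsc1 by -0.46 (adjusted p = 0.139) and Mtor by 0.19 (adjusted p = 0.546).

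When the 6 groups were ordered by mean level for each gene, 1 of the 50 pairs of neighbouring groups was called. For Irs2 the order was CTR, SCI14d, SCI14d + TM, SCI3d, SCI8d + TM and SCI8d from high to low, and only the step from CTR to SCI14d was called. For the other 9 genes no neighbours in the order were called, so their rank order is not resolved beyond the contrasts named above. The day 14 training effect less the day 8 one was called for none of the 10 genes in limma (0 of all probe sets), with 1, Tsc2, at an unadjusted p under 0.05 (5.34% of all probe sets).

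Within groups, the genes varied together from rat to rat only in part. Over the 36 arrays, with each group's mean taken off, the 45 pairs of genes had Pearson r from -0.39 to 0.63 with a median of 0.07. The highest were Insr with Tsc1 (0.63), Tsc1 with Tsc2 (0.60), Irs2 with Tsc1 (0.50) and Insr with Irs2 (0.50). Akt1 with Rps6kb1 was lowest (-0.39). These arrays share a scaling to one mean, so r is a description. Among 10374 genes compared, those most like Irs2 over all 36 arrays were Qrsl1 (0.79), Mib2 (0.78) and Cat (0.77). For Mtor they were Ap2a2 (0.83), Zc3h14 (0.80) and Bysl (0.78), for Rheb Trafd1 (0.85), Psmd5 (0.80) and Nsfl1c (0.80), and for Akt1 Atxn7l1 (0.77), Pcbp2 (0.74) and Gcsh (0.73).

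**Figure D4:**
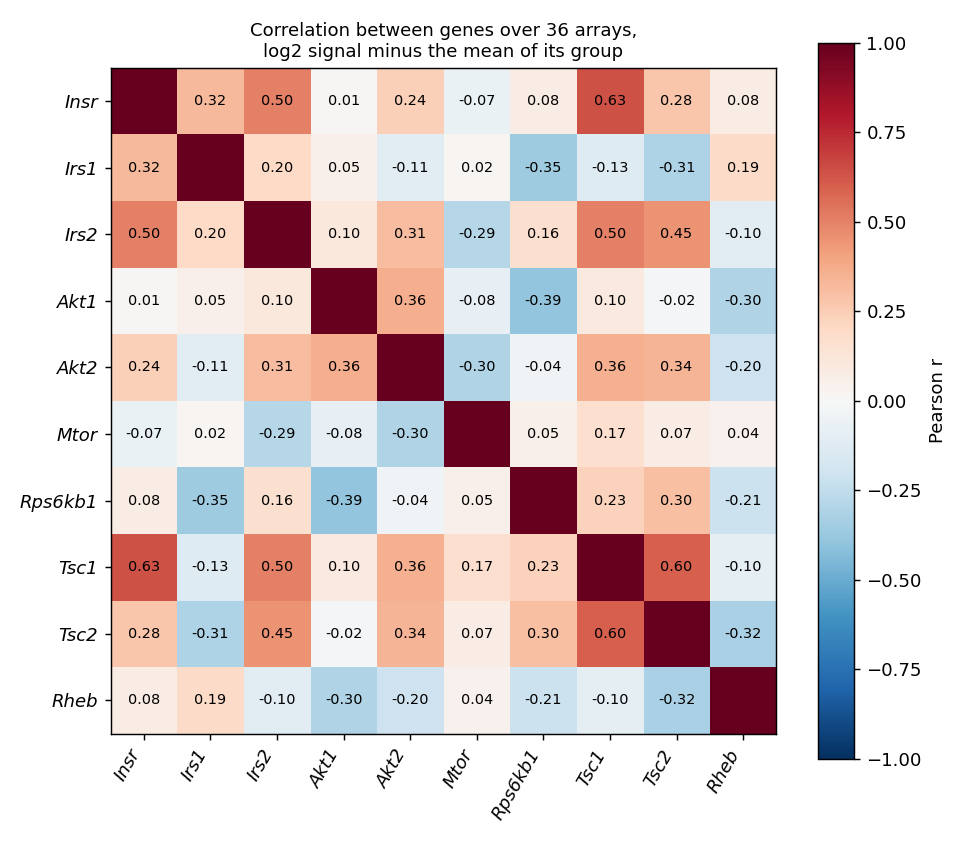
Pearson r between each pair of the 10 genes over 36 arrays (color scale from -1 to 1), from log2 signals with the mean of each group taken off. The highest r is that of Insr with Tsc1, 0.63, and the 5 highest pairs all lie among Insr, Irs2, Tsc1 and Tsc2, where Insr with Tsc2 has a lower r of 0.28. Mtor lies between -0.30 and 0.17 with all others.

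Around these 10 genes, 76 further genes of the pathway were listed in 7 lists, and 68 of them were measured by a probe set with 1 symbol. On day 3, 9 rose and 10 fell, which is 27.9% of the 68 against 16.5% of all probe sets, with medians of -0.13 and -0.04. On day 8, 2 rose and 3 fell, and on day 14, 1 rose and 2 fell, which is 7.35% and 4.41% of the 68 against 6.29% and 3.19% of all probe sets. None was called between trained and untrained rats on either day. In SCI8d + TM against controls, 4 were higher and 10 lower (20.6% of the 68 against 12.2% of all probe sets), and in SCI14d + TM none was called.

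**Figure D5:**
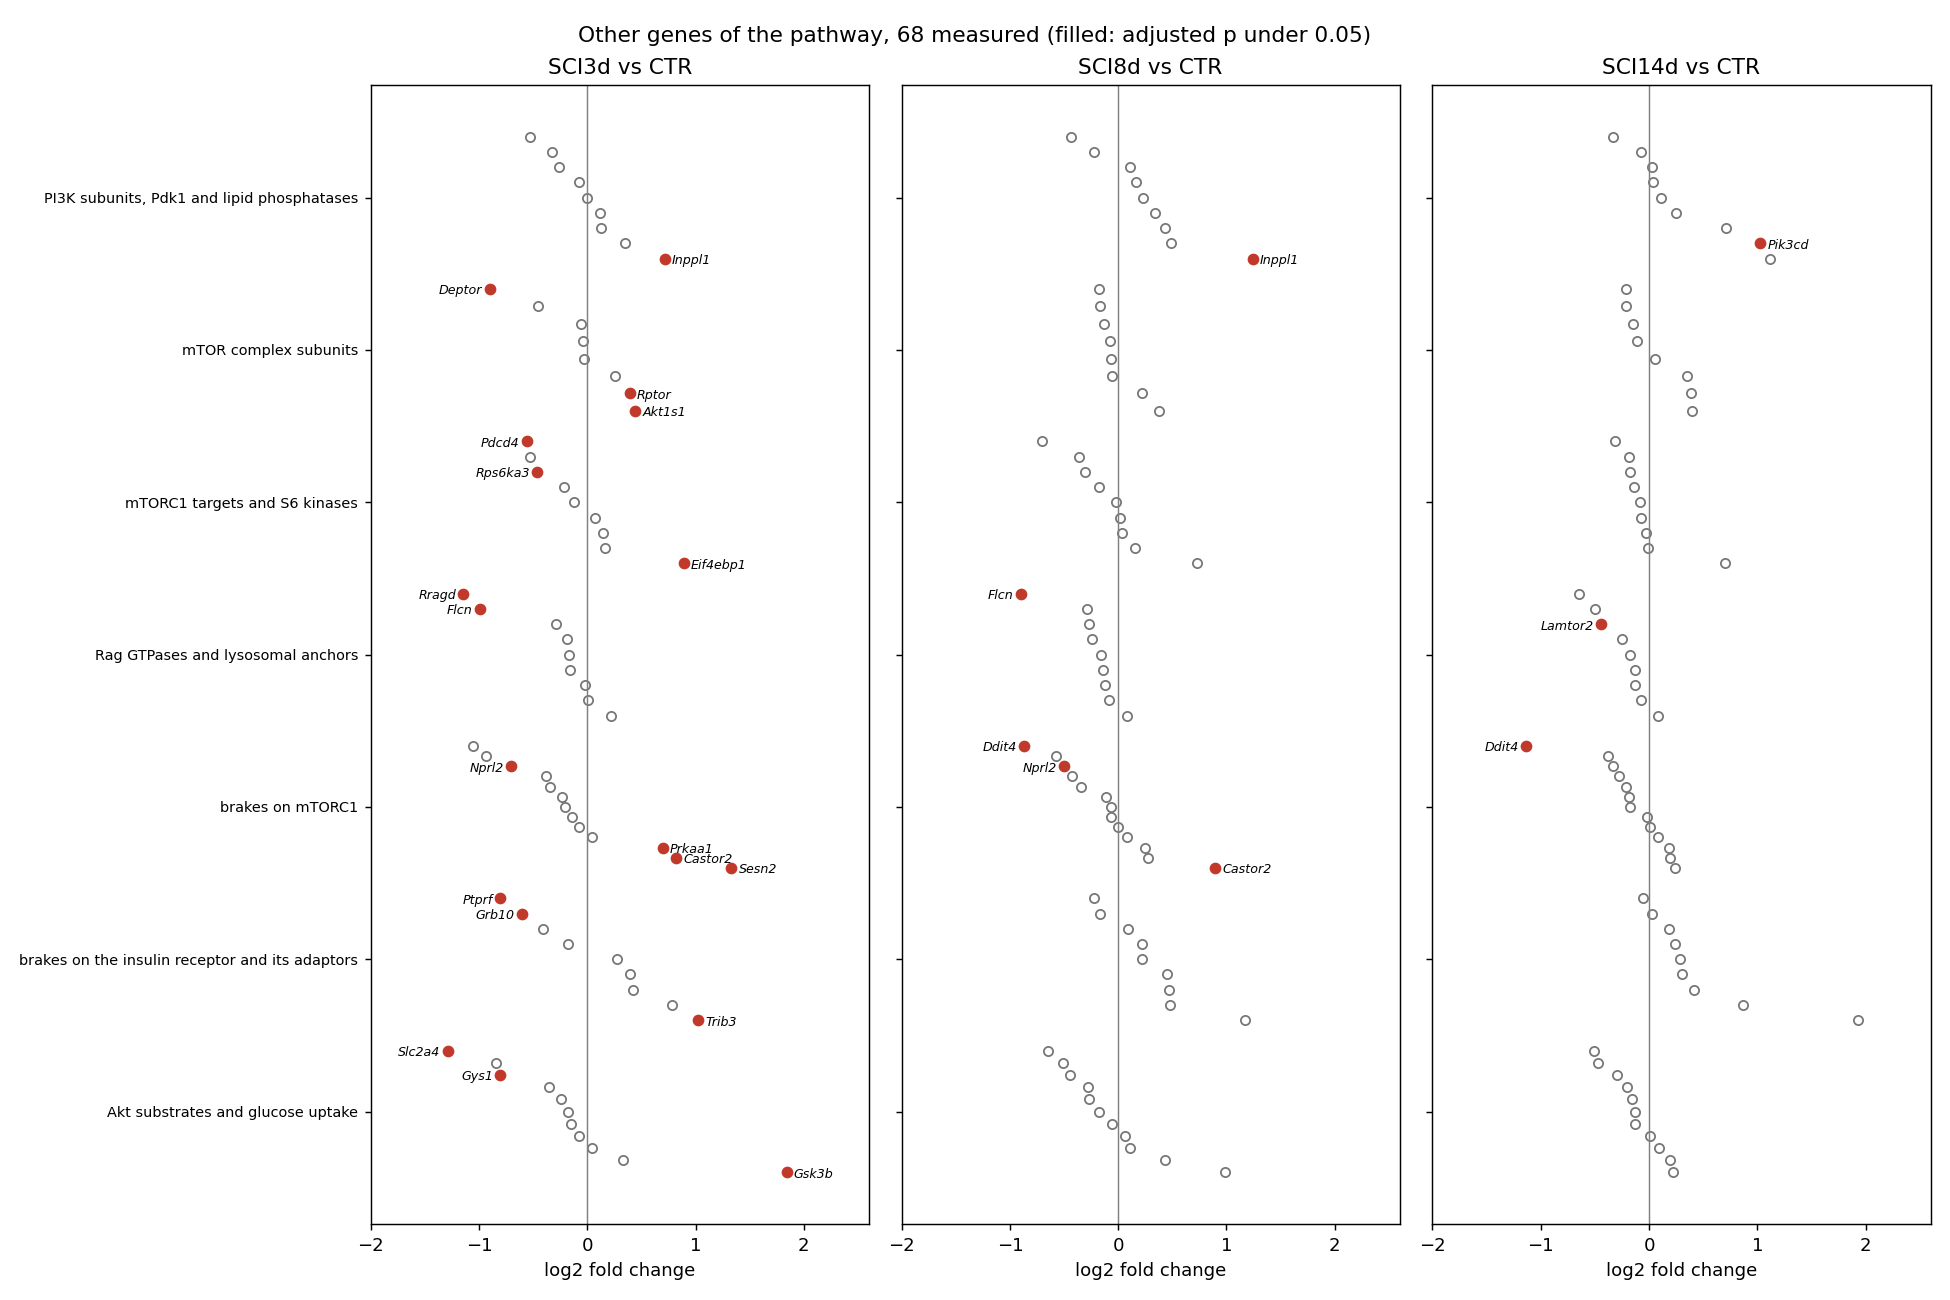
Log2 fold change against controls (x axis) of the 68 other pathway genes in 7 lists (y axis) on days 3, 8 and 14 in untrained rats, 1 point per gene, with called genes filled and named. Day 3 holds 19 named genes on both sides of 0, day 8 holds 5 and day 14 holds 3.

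Of 9 measured PI3-kinase subunits and lipid phosphatases, 1 was called on each day, which is 11.1% against 16.5%, 6.29% and 3.19% of all probe sets on days 3, 8 and 14. Inppl1, which encodes the lipid phosphatase SHIP2, had 1458 to 2016 (median 1816) in controls and 2069 to 5655 (median 4654) in SCI8d, with a fold change of 1.24 (adjusted p = 0.00202). Its day 3 fold change was 0.72 (adjusted p = 0.0371). A second probe set gave 0.91 on day 3 (adjusted p = 0.0899) and was called on day 8 (adjusted p = 0.0282). The groups of the brighter probe set did not overlap on day 8, and those of the second one did. Pik3cd, the leukocyte-rich catalytic subunit p110 delta, rose on day 14 by 1.03 (adjusted p = 0.024). A second, dimmer probe set of Pik3cd was called on day 3 (0.86, adjusted p = 0.0124), when the brighter one was at -0.08, and gave 0.82 on day 14 (adjusted p = 0.0553). Of 9 brakes on the receptor and its adaptors, 33.3% were called on day 3. Trib3, an Akt-binding pseudokinase, rose on day 3 by 1.02 (adjusted p = 0.0194), and Grb10 fell by 0.60 (adjusted p = 0.0198) and Ptprf fell by 0.81 (adjusted p = 0.0283). Trib3 was dim, at 86.0 to 235.5 in controls and 110.2 to 576.0 in SCI3d, so its groups overlapped. Dimmer probe sets of Trib3 gave 1.09 (adjusted p = 0.342) and 1.835 (adjusted p = 0.0348). Further probe sets of Grb10 gave -0.01 and -0.11, and 1 of Ptprf gave -0.11.

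The genes of glucose handling downstream of Akt held the largest called day 3 difference of the 68 genes, that of Gsk3b. Slc2a4, the insulin-regulated glucose transporter GLUT4, had 16477 to 20643 (median 18101) in controls and 3658 to 12144 (median 8303) in SCI3d, with no overlap and a fold change of -1.29 (adjusted p = 0.00052). The other probe set of Slc2a4 gave -0.84 (adjusted p = 0.0634). On day 8 the brighter one was at -0.28 and was not called. Gys1, muscle glycogen synthase, fell by 0.81 (adjusted p = 0.0165). Gsk3b, the kinase that inactivates glycogen synthase, had 748.1 to 1363 (median 905.1) in controls and 1509.7 to 5773 (median 3318) in SCI3d. It rose by 1.84 (adjusted p = 0.00133), again with no overlap. Thus 1 of 11 measured genes of this list rose and 2 fell on day 3, which is 27.3% against 16.5% of all probe sets, with a list median of -0.18, and none was called on days 8 and 14.

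Within the mTOR complexes, 2 of 8 genes rose on day 3 and 1 fell, 37.5% against 16.5% of all probe sets. Rptor, the scaffold of mTOR complex 1, rose by 0.39 (adjusted p = 0.0267) and Akt1s1, its inhibitor PRAS40, by 0.44 (adjusted p = 0.0179). Deptor, an inhibitor of mTOR, fell by 0.90 (adjusted p = 0.00299), from 1587 to 2517 (median 2104) in controls to 845.0 to 1212 (median 1129) in SCI3d with no overlap. Deptor's other probe set gave -0.59 (adjusted p = 0.137). All 3 were uncalled on days 8 and 14, where Deptor was at -0.05 and 0.35. Of 9 measured targets and S6 kinases, 33.3% were called on day 3. Eif4ebp1, the translation repressor 4E-BP1, rose on day 3 by 0.89 (adjusted p = 0.00334), with all SCI3d rats above all controls. Pdcd4, another repressor of translation, fell by 0.56 (adjusted p = 0.00856) and Rps6ka3 fell by 0.46 (adjusted p = 0.0273). A second probe set of Rps6ka3 gave 0.50.

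The genes that bring amino acid and stress signals to mTOR complex 1 were called in both directions on day 3, with 2 of 9 anchors lower and none higher, and 3 of 13 brakes higher and 1 lower. That is 22.2% and 30.8%, against 16.5% of all probe sets. Of 9 Rag GTPases and lysosomal anchors, Rragd fell by 1.14 (adjusted p = 0.0005) and Flcn, folliculin, fell by 0.99 (adjusted p = 0.000789). Flcn had 3115 to 4952 (median 4327) in controls, 1742 to 2674 (median 1970.0) in SCI3d and 1774 to 3376 (median 2025) in SCI8d, where its fold change was -0.90 (adjusted p = 0.00802). On day 14 Lamtor2, a Ragulator subunit, fell by 0.44 (adjusted p = 0.0226). Of 13 brakes, Sesn2, a leucine sensor, rose on day 3 by 1.33 (adjusted p = 0.00272) but spanned 236.4 to 2459.9 there against 256.1 to 528.0 in controls. Castor2, an arginine sensor family member, rose on day 3 by 0.82 (adjusted p = 0.0231), and its day 8 fold change was 0.90 (adjusted p = 0.0298). Nprl2, a subunit of the GATOR1 complex, fell by 0.71 on day 3 (adjusted p = 0.00116), and its day 8 fold change was -0.50 (adjusted p = 0.0462). For Nprl2 another probe set gave -0.51 (adjusted p = 0.0933) and -0.23. Ddit4, the stress-induced inhibitor REDD1, was called later, with a fold change of -0.87 on day 8 (adjusted p = 0.0113) that reached -1.13 by day 14 (adjusted p = 0.00254).

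The day 3 calls for Deptor, Eif4ebp1, Rragd, Flcn, Nprl2, Slc2a4 and Gsk3b and the day 8 calls for Inppl1 and Flcn held in all 50 alternative settings, which do not count the single second probe sets given above. The Sesn2 call on day 3 and the Ddit4 calls on days 8 and 14 were lost only with the methods' t-test (adjusted p 0.113, 0.0915 and 0.0612). That of Pdcd4 on day 3 was lost only with scaling to Gapdh (adjusted p = 0.128). Others were lost when 1 array was left out. On day 3 these were Inppl1 without CTR replicate 1, 4 or 6 or SCI3d replicate 1, 2, 4 or 6 (adjusted p up to 0.117), Rptor without CTR replicate 2 or 4 or SCI3d replicate 1 or 3 (up to 0.0846), and Akt1s1 without SCI3d replicate 3 (0.0686). Rps6ka3 was lost without CTR replicate 5 or 6 or SCI3d replicate 3 or 4 (up to 0.082), Trib3 without CTR replicate 2 or 6 or SCI3d replicate 1 or 4 (up to 0.0769), and Grb10 without SCI3d replicate 2 or 4 (up to 0.0588). Ptprf was lost without CTR replicate 3 or 5 or SCI3d replicate 3 (up to 0.0849), Castor2 without CTR replicate 3 or SCI3d replicate 2 or 6 (up to 0.0738), and Gys1 without SCI3d replicate 2 (0.0668). On day 8 the Castor2 call was lost without CTR replicate 1 or 3 or SCI8d replicate 2, 3 or 6 (up to 0.081), and that of Nprl2 in 18 of 36 cases (up to 0.142). On day 14 the Pik3cd call was lost without CTR replicate 2 or 6 or SCI14d replicate 3 or 4 (up to 0.0818), and that of Lamtor2 without CTR replicate 1 or 6 or SCI14d replicate 4 or 6 (up to 0.058).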

How the data were processed

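The authors labelled total RNA from each soleus, hybridised it to Affymetrix rat genome arrays and produced the deposited intensity values with MAS5 as linear signals, scaled per array; the mean of an array without its outer 2% was 800.3 to 800.4. The number of arrays limits the precision, and arrays carry no read depth. The table had 0 columns that matched no sample. Of 31099 probe sets, 57 controls were left out, and 31042 were tested; 20826 carry 1 gene symbol in the platform annotation, 436 several and 9780 none. No 2 arrays held identical values.

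Log2 signals without an offset were fitted in limma 3.58.1 (R 4.3.3, lmFit and eBayes with an intensity trend) with 1 mean for each of the 6 groups (30 residual degrees of freedom) and adjusted by Benjamini-Hochberg over all probe sets. Group summaries are on the linear scale. The named genes are the 10 genes, up to 4 called genes of each pathway list with the smallest p in the 5 comparisons of the study, and the 3 genes of highest r with each of the Irs2, Akt1, Mtor and Rheb genes. Members and lists were chosen with earlier results of these data known. The rats are separate animals. The procedure was tested on simulated data. Alternatives were quantile normalization, median centring, scaling to Gapdh, an offset of 32, leaving out the dimmest 40% of probe sets, no trend, array weights, the groups of a comparison alone, the methods' t-test, a replicate block, replicates 5 and 6 as a batch, the GAPDH ratio, other probe sets and leaving out each array. Figures were drawn with matplotlib 3.10.9.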

Additional observations from a re-analysis of the deposited data

Results flagged for a closer look

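Of the 60 sets of 6 arrays (10 genes in 6 groups), 1 held an array beyond Dixon's 95% limit for 6 arrays, where chance gives about 3 (1 in 20). It was Irs2 in SCI14d + TM replicate 1, whose signal of 1157 stood above the 411.1 to 519.8 of the other 5 (Dixon ratio 0.773). Without that rat the difference between SCI14d + TM and controls was -1.33 (adjusted p = 0.00896), against -1.10 (adjusted p = 0.0594) with it.

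For Tsc2, on the log2 scale, all 6 SCI8d + TM rats were below the mean of SCI8d and all 6 SCI14d + TM rats were above the mean of SCI14d. The groups themselves overlapped, with 1237 to 1436 in SCI8d + TM against 1295 to 2033 in SCI8d. On day 14 the ranges were 1562 to 2229 in SCI14d + TM and 1252 to 2351 in SCI14d. The difference between the day 14 and day 8 training effects was 0.366 on the log2 scale, with an unadjusted p of 0.0455 and an adjusted p of 0.918 in limma. Tsc2 was picked by this pattern, so that p gives it no separate support. The share of all probe sets with such a pattern was not computed.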

How the results depend on the processing

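With 6 arrays a group, the 95% intervals between groups spanned from 0.341 log2 units for Rheb to 1.55 for Irs1. Counts of the 10 genes called stood as follows where they moved by over 1.5 times. SCI8d against CTR (2 in the report) gave 1 with median centring, scaling to Gapdh, the groups of the comparison alone and the methods' t-test adjusted, and 4 with that t-test unadjusted. SCI14d against CTR (1) gave 0 with Gapdh, no trend, the groups alone and the adjusted t-test, 2 with median centring and array weights, and 4 with the unadjusted t-test. SCI8d + TM against CTR (4) gave 1 with Gapdh. SCI14d + TM against CTR (0) gave 1 with median centring, the dimmest 40% left out, 1 probe set per gene and replicates 5 and 6 as a batch, 2 with array weights and 3 with the unadjusted t-test. SCI8d against SCI3d (1) gave 0 with Gapdh, the groups alone and the adjusted t-test, and 2 with the unadjusted one. SCI14d against SCI3d (0) gave 1 with quantile normalization, Gapdh and the GAPDH ratio as a covariate, 2 with the dimmest 40% left out and 1 probe set per gene, 3 with the mean of probe sets, 5 with median centring and 4 with the unadjusted t-test. SCI14d against SCI8d (0) gave 3, and SCI8d + TM against SCI8d (0) gave 1, with the unadjusted t-test. SCI3d against CTR (4) gave 2 with the mean of probe sets, and the F test (5) gave 8 with median centring and 2 with Gapdh. With Gapdh scaling, the median of all probe sets shifted to 0.32 on day 14. The cause of these moves was not tested.

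Leaving out 1 array gave 4 to 4 genes for SCI3d, 1 to 2 for SCI8d, 0 to 2 for SCI14d, 3 to 4 for SCI8d + TM and 0 to 2 for SCI14d + TM against CTR, 0 to 2 for SCI8d and 0 to 1 for SCI14d against SCI3d, 4 to 6 for the F test, and 0 for both training comparisons.

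Reversed values came from other probe sets. On day 3 Rheb gave -0.41 and, as a mean of probe sets, -0.0398, Akt1 0.0280, Pik3cd 0.86 and Rps6ka3 0.50. In SCI8d + TM against CTR, Tsc1 gave 0.10, Pdcd4 0.22 and 0.19 and Rps6ka3 0.69. Rps6kb1 gave -0.52 for SCI8d against SCI3d.

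The replicate numbers did not pair the samples, with same-number correlations from -0.35 to 0.52 over 90 pairs, 60 of them at or under 0.1. With the replicate block, SCI14d + TM against CTR had 1 gene called (Irs2, adjusted p = 0.0451) and no other count moved by over 1.5 times. No array had a GAPDH ratio above 3, so leaving such arrays out could not give another value.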

Other observations

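The insulin-like growth factor genes, which feed the same route, stood in none of the lists above. Igf1r, the type 1 receptor, was higher on day 3 by 0.47 (SE 0.13, adjusted p = 0.01), with mean signals of 944.0 in SCI3d and 672.9 in controls, and its later differences of 0.11 and 0.13 were not called. A second probe set of Igf1r gave 0.36 on day 3 (adjusted p = 0.176). Igf1 was not called in any comparison. Its mean signal was 3237 in controls, 2768 in SCI3d, 3649 in SCI8d, 4443 in SCI14d and 6275 in SCI14d + TM, and the last differed from controls by 1.03 (95% interval 0.42 to 1.65, adjusted p = 0.122). Igf2 was at -0.77 on day 3 (adjusted p = 0.148).

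In SCI8d + TM against controls, 14 further pathway genes were called, and 6 of them were not named above for untrained rats; these 6 were picked after their values were seen. Ulk1, the autophagy-initiating kinase that mTOR complex 1 inhibits, had a fold change of -1.27 (adjusted p = 0.00859) and was called in all 50 alternative settings. The Akt substrate Foxo4 was at -0.90 (adjusted p = 0.0218), and its call was lost without CTR replicate 4 or SCI8d + TM replicate 2 or 6 (adjusted p up to 0.0547). Tbc1d1 was at 0.59 (adjusted p = 0.0421), which was lost without CTR replicate 1, 2, 3 or 6 or SCI8d + TM replicate 4, 5 or 6 (up to 0.114). Among brakes, Ddit4l was at -1.52 (adjusted p = 0.0456) and was lost without any one of the 6 CTR arrays, SCI8d + TM replicate 4, 5 or 6 or SCI14d + TM replicate 2 or 4 (up to 0.137). Sesn1 was at -0.83 (adjusted p = 0.0439) and was lost without CTR replicate 1, 2, 3, 5 or 6 or SCI8d + TM replicate 2, 4, 5 or 6 (up to 0.114). Lamtor5 was at -0.34 (adjusted p = 0.0396) and was lost without CTR replicate 1, 5 or 6 or SCI8d + TM replicate 1, 2, 3, 4 or 5 (up to 0.1).

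The other 8 were named above for untrained rats. In this comparison Inppl1 was at 1.18, Flcn at -1.02 and Lamtor2 at -0.48 (adjusted p = 0.00385), Gsk3b at 1.37 (adjusted p = 0.0233), Pdcd4 at -0.50 (adjusted p = 0.0252), Nprl2 at -0.52, Castor2 at 0.87 and Ddit4 at -0.65. Leaving out 1 array ended the calls of Gsk3b (SCI8d + TM replicate 5 or 6, adjusted p up to 0.0619), Pdcd4 (SCI8d + TM replicate 2, 5 or 6, up to 0.0762), Nprl2 (SCI8d + TM replicate 4 or 5, up to 0.0634), Castor2 (CTR replicate 3 or SCI8d + TM replicate 3 or 6, up to 0.0622) and Ddit4 (CTR replicate 1, 2, 3 or 6 or SCI8d + TM replicate 2, 4, 5 or 6, up to 0.0967). Other scaling, models or probe sets also ended calls in this comparison, with an adjusted p up to 0.453 for Pdcd4, 0.387 for Lamtor5 and 0.0946 for Lamtor2.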
